A study of Danio rerio with 5 samples.

Results

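Hox cluster genes encode homeodomain transcription factors that give position along the head-to-tail axis, and in zebrafish they lie in 7 clusters. The genes were taken by symbol, as hoxa, hoxb, hoxc or hoxd followed by a number, and a probe received its symbol through the RefSeq accession it carries. Of 49 annotated protein-coding Hox genes, 47 had 115 probes on the array, among 13143 gene symbols in all. Of these 47, 43 genes passed the filter on dim probes, with all but 8 of these probes, among 10792 genes tested. Probes matching hoxc10a and hoxc11b were not found, and these genes were not analysed here.

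Zebrafish embryos (Danio rerio) received 1 nl of morpholino solution at the 1-cell stage and were collected whole at 14 hours post fertilization (hpf), during somite formation. A morpholino (MO) is a synthetic oligonucleotide that blocks the translation or splicing of the RNA it pairs with. Embryos of the gata5/6 MO group (2 arrays) received 6.25 ng of gata5 MO and 1.25 ng of gata6 MO, and embryos of the control MO group (3 arrays) received 7.5 ng of control MO. The labels give the aim as lowering gata4, gata5 and gata6, zinc-finger factors of heart and gut, since the pair has been reported to lower gata4 too.

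The genes of a Hox cluster are numbered by paralog group, and the order of the numbers follows the order along the chromosome. Low-numbered genes are switched on early and act in the hindbrain and pharyngeal arches, middle ones in the trunk, and high-numbered ones late in the tail, a relation known as collinearity. Retinoic acid activates anterior Hox genes, caudal factors together with Wnt and Fgf signals activate trunk and posterior ones, and Polycomb and Trithorax proteins keep them off or on. Paralog groups 1 to 4 are called anterior below, groups 5 to 8 middle and groups 9 to 13 posterior.

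Each array had 70.1% to 71.1% of its 43603 probes well above background, and 0 spots were saturated. Signals are given as log2 of the intensity minus log2 of the array's 75th percentile, so that 0 is a spot as bright as that percentile (506 to 574 intensity units). A change is the gata5/6 MO mean minus the control MO mean on this scale, and a gene passed at an adjusted p under 0.05 (limma, Benjamini-Hochberg over all 10792 genes). The spread between replicates was wider after gata5/6 MO (median SD of a gene 0.170, n = 2) than after control MO (0.0654, n = 3). The limma fit gave each gene 1 variance for both groups. Its p-values may thus be too small where the gata5/6 MO arrays vary more. The 2 gata5/6 MO arrays shared a slide and a scan, and the 3 control MO arrays shared another, so that slide and treatment cannot be told apart. The labels do not say whether replicates were separate clutches, and the p-values may therefore rest on technical spread only. Of 15 markers of neural, muscle, epidermal, notochord, endodermal, crest and blood cells, 14 were measured, tp63 fell (change -0.47, adjusted p = 0.0491 in limma, a call lost without any 1 of the control MO arrays), 13 did not pass, and sox17 was not well above background. The targeted genes gave changes of -0.64 for gata4 (adjusted p = 0.00520), 1.98 for gata5 (adjusted p = 0.000191) and 2.85 for gata6 (adjusted p = 5.76e-05, limma), and since a morpholino need not lower its target's RNA, the last 2 do not check the injection.

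Most Hox genes differed little between gata5/6 MO and control MO embryos. The genes hoxb13a, hoxc13a and hoxd13a, which belong to the most posterior paralog group, rose, and 0 Hox genes fell. The 3 of 43 that rose stand beside 7.84% of all genes that rose, and the 0 that fell beside 7.17% that fell. Among the 3, hoxb13a was kept by the filter only through the gata5/6 MO arrays and so could pass only as higher. With probes well above background on all 5 arrays, 42 Hox genes were tested and hoxa11b, hoxc13a and hoxd13a rose. Hox genes that passed in either direction were thus 6.98% of the family, against 15.0% of all genes, and the share that rose was near that of the array as a whole. The median change was 0.01 over the Hox genes and 0.04 over all genes, and the median size of the change was 0.18 and 0.19. With quantile-normalized signals the Hox median was -0.021, so its sign is not settled. Single arrays decided several calls: hoxb13a alone rose without control MO replicate 1, 2 or 3. Without gata5/6 MO replicate 2, 13 Hox genes rose and 0 fell (3114 and 2166 of all genes), and without gata5/6 MO replicate 1, 4 rose and 4 fell (956 and 1055 of all genes). In these last 2 fits the lone gata5/6 MO array is assumed to vary like the control MO arrays, which alone give the spread and which varied less, so their p-values are too small if it does not.

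The positions of single arrays gave a fuller picture than the calls. Both gata5/6 MO arrays lay above all control MO arrays for 17 Hox genes, where 29.0% of all genes did so. They lay below all control MO arrays for 8 Hox genes, where 21.8% of all genes did so. For the other 18 Hox genes the groups overlapped. The changes ran from -0.32 (hoxb7a) to 1.17 (hoxa1a), with 24 above 0 and 19 below 0. In whole embryos, fewer cells that express a gene and less RNA per cell cannot be told apart.

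**Figure D1:**
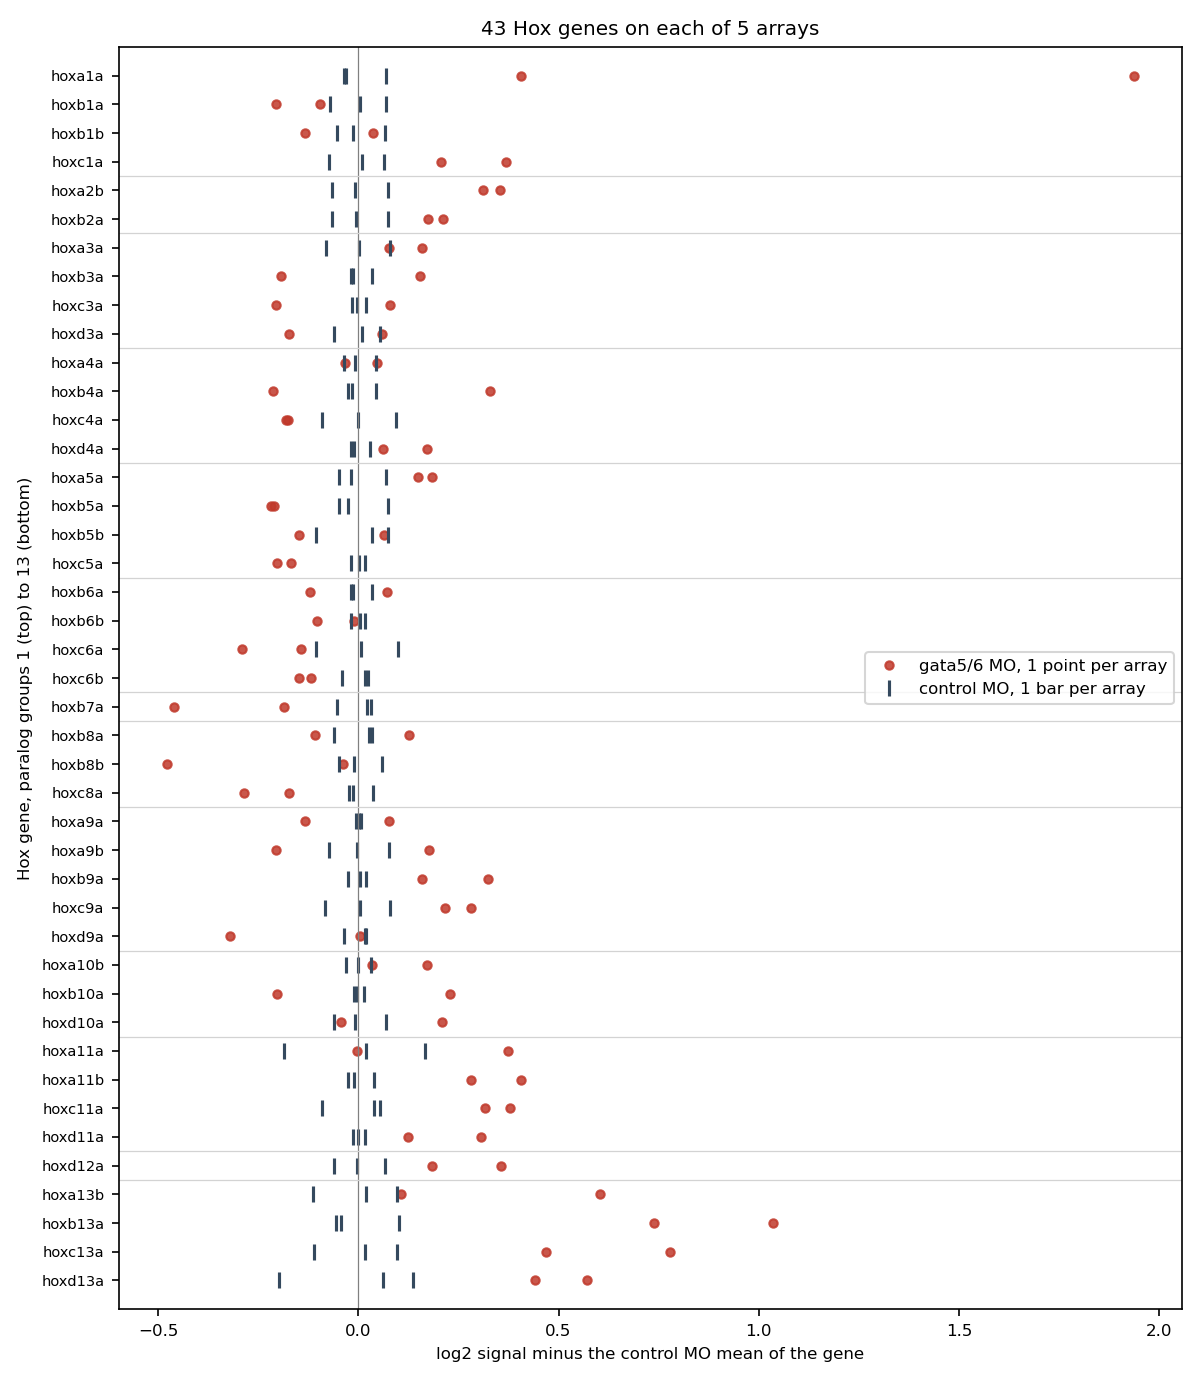
Log2 signal of 43 Hox genes minus the control MO mean of the same gene (horizontal axis), with genes down the page from paralog group 1 to 13. Red points are the 2 gata5/6 MO arrays and dark bars the 3 control MO arrays. The red points of hoxb13a, hoxc13a and hoxd13a lie well to the right of the bars, those of hoxb7a to the left, and the pair of hoxa1a are far apart.

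**Figure D2:**
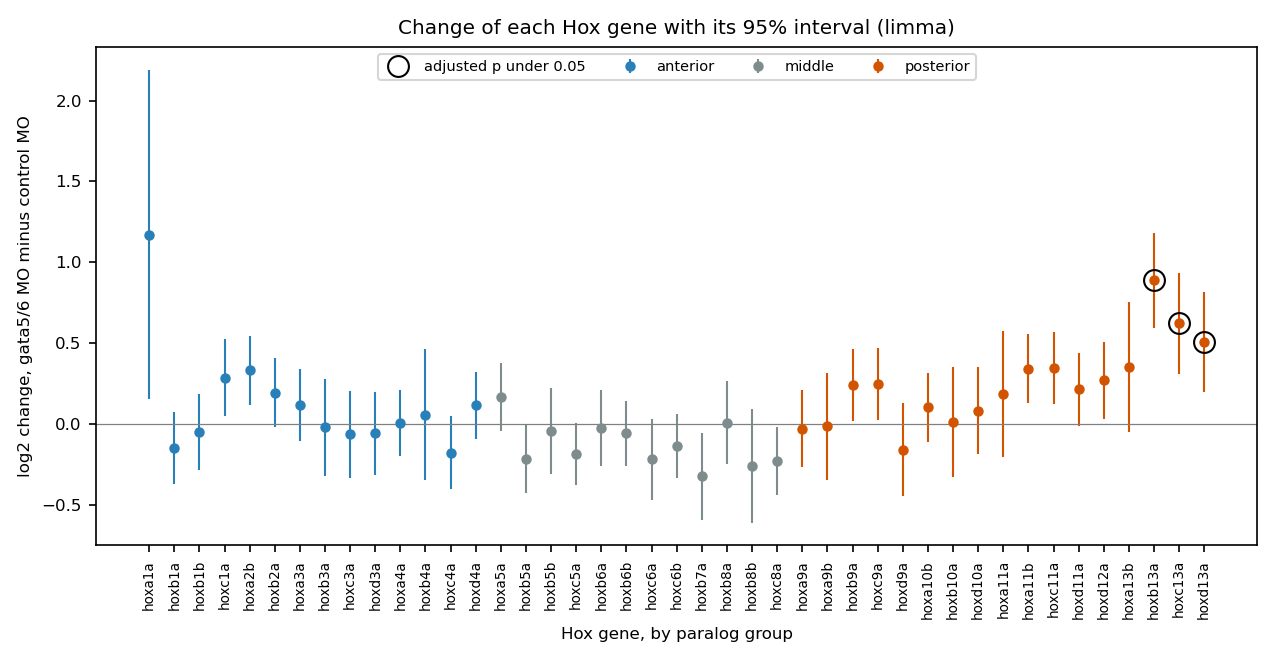
Change of each Hox gene on the log2 scale (gata5/6 MO minus control MO, points) with its 95% interval from limma (lines), ordered by paralog group. Open rings mark hoxb13a, hoxc13a and hoxd13a, the 3 genes with an adjusted p under 0.05, and hoxa1a has the widest interval, 0.15 to 2.19.

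The 14 anterior genes, of groups 1 to 4, were all measured, and 0 of them passed (15.0% of all genes did). Their median change was 0.03, with 8 genes above 0 and 6 below 0. For 5 of the 14, both gata5/6 MO arrays lay above all control MO arrays (29.0% of all genes did), and for 2 below them (21.8% of all genes).

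Group 1 genes pattern the hindbrain, and the mouse counterpart of hoxa1a is needed for its segmentation. For hoxa1a the log2 signal was -4.93 and -3.40 on the gata5/6 MO arrays, against -5.27, -5.37 and -5.37 on the control MO arrays. The gata5/6 MO arrays were thus both above the control MO arrays, but the second stood far above the first. The change of 1.17 (SE 0.415, adjusted p = 0.118 in limma) was the largest of the family and did not pass. It was 0.41 without gata5/6 MO replicate 2 and 1.94 without gata5/6 MO replicate 1. The change passed when each group was given its own variance, but these variances were drawn towards those of other genes. The SE of hoxa1a was then 0.206, against 0.415 before, although its gata5/6 MO arrays had an SD of 1.08 (n = 2). That call thus rests mostly on spread borrowed from other genes, and not on the wide spread of hoxa1a itself. Under normexp background correction, fitted in 2 forms, the sign of the change turned (-0.057 and -0.069). With the high local backgrounds of 5 spots on control MO replicate 3 replaced, the change was 0.50. A second hoxa1a probe was well above background on both gata5/6 MO arrays and on 0 of the 3 control MO arrays. The filter kept this probe only through the gata5/6 MO arrays, so its direction was set by the filter. The spots were dim, with intensities of 16.6 and 53.3 after gata5/6 MO, against 14.8, 13.9 and 13.5 after control MO.

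The remaining group 1 genes moved less. The gene hoxb1a, which gives the fourth rhombomere of the hindbrain its identity, had a change of -0.15 (adjusted p = 0.309), with both gata5/6 MO arrays below the control MO arrays. For hoxb1b, an early hindbrain gene downstream of retinoic acid, the change was -0.05 and the groups overlapped. The change of hoxc1a was 0.29 (adjusted p = 0.105), with both gata5/6 MO arrays above the control MO arrays and a second probe at 0.22.

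Group 2 genes act in the hindbrain and in the neural crest of the pharyngeal arches, where hoxa2b gives the second arch its identity. The log2 signal of hoxa2b was 0.79 and 0.83 after gata5/6 MO, against 0.47, 0.55 and 0.41 after control MO. The groups did not overlap and the gata5/6 MO arrays were close together. The change was 0.33 (SE 0.0872, adjusted p = 0.0560 in limma), just outside the threshold, and the 3 other probes gave 0.32 to 0.41. With the mean over its probes hoxa2b passed, but not with quantile-normalized signals or under the 2 normexp forms. Its group partner hoxb2a had a change of 0.19 (adjusted p = 0.194), again with both gata5/6 MO arrays above the control MO arrays.

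Groups 3 and 4 act in the posterior hindbrain, the posterior arches and the start of the spinal cord. In group 3 the largest change was that of hoxa3a, with log2 signals of -0.27 and -0.19 after gata5/6 MO, against -0.35, -0.27 and -0.43 after control MO. The groups overlapped, and the change of 0.12 (SE 0.0914, adjusted p = 0.418) did not pass. The genes hoxb3a, hoxc3a and hoxd3a gave changes between -0.06 and -0.02, all with overlapping groups. In group 4, hoxc4a had log2 signals of -0.80 and -0.80 after gata5/6 MO, against -0.62, -0.53 and -0.71 after control MO. Neither gata5/6 MO array reached the control MO arrays, yet the change of -0.18 (SE 0.0921, adjusted p = 0.243) did not pass, and the gene's 3 other probes ran from -0.11 to 0.25. The changes of hoxa4a, hoxb4a and hoxd4a, the last a direct target of retinoic acid receptors in the mouse, were 0.01, 0.06 and 0.12.

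The 12 middle genes, of groups 5 to 8, were all measured and 0 passed (15.0% of all genes did). Of the 12, 10 had a change below 0. Their median change was -0.16, and both gata5/6 MO arrays lay below all control MO arrays for 6 of the 12 (21.8% of all genes did) and above them for 1 (29.0% of all genes). Of the 30 probes of these genes that passed the filter, 7 had a change above 0.

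Group 5 genes act at the level of the pectoral fin, and zebrafish hoxb5b is known to limit the size of the heart downstream of retinoic acid. For hoxb5a the log2 signal was 0.52 and 0.53 after gata5/6 MO, against 0.69, 0.81 and 0.71 after control MO. The gata5/6 MO arrays were close together below the control MO arrays, and the change of -0.22 (SE 0.0854, adjusted p = 0.149) did not pass. The gene hoxb5b had a change of -0.04 with overlapping groups. The change of hoxc5a was -0.19 (adjusted p = 0.173). The exception of the group was hoxa5a, with a change of 0.17 (adjusted p = 0.238) and both gata5/6 MO arrays above the control MO arrays.

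Group 6 genes are genes of the anterior trunk, and in vertebrates the front limit of hoxc6 expression marks the passage from neck to trunk. The log2 signal of hoxc6a was 0.47 and 0.62 after gata5/6 MO, against 0.77, 0.66 and 0.86 after control MO. The groups did not overlap, and the change of -0.22 (SE 0.103, adjusted p = 0.208) did not pass. The changes of hoxc6b, hoxb6b and hoxb6a were -0.13, -0.06 and -0.02, so that all 4 genes of the group were below 0.

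The only group 7 gene annotated was hoxb7a, a gene of the trunk spinal cord and mesoderm. Its log2 signal was 2.93 and 2.66 after gata5/6 MO, against 3.15, 3.06 and 3.14 after control MO. Both gata5/6 MO arrays were below the control MO arrays, the second further than the first. The change of -0.32 (SE 0.110, adjusted p = 0.108) was the lowest of the family, and the 2 other probes gave -0.34 and 0.04. In limma it passed with quantile-normalized signals (-0.37) and in the authors' deposited value table (-0.37).

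Group 8 genes act in the trunk, and in the mouse they pattern the thoracic skeleton and motor neurons. For hoxb8b the log2 signal was 0.07 and -0.37 after gata5/6 MO, against 0.17, 0.06 and 0.10 after control MO. The first gata5/6 MO array lay among the control MO arrays and the second below them, and the change was -0.26 (SE 0.143, adjusted p = 0.270). The gene hoxc8a had log2 signals of 2.92 and 2.81 after gata5/6 MO, against 3.13, 3.07 and 3.08 after control MO. Its groups did not overlap, the change was -0.23 (SE 0.0849, adjusted p = 0.130), and its 3 other probes gave -0.24 to -0.18. The change of hoxb8a was 0.01.

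Among the posterior genes, of groups 9 to 13, 17 of the 21 on the array were measured. The genes hoxb13a, hoxc13a and hoxd13a rose (7.84% of all genes did) and 0 fell (7.17% of all genes). The median change was 0.24, and 14 of the 17 changes were above 0. Both gata5/6 MO arrays lay above all control MO arrays for 11 of the 17 (29.0% of all genes did) and below them for 0 (21.8% of all genes). Of the 17, 1 gene (hoxb13a) passed the filter on dim probes only through the gata5/6 MO arrays, so its direction was set by the filter. The genes hoxa13a, hoxc12a, hoxc12b and hoxc13b were not well above background on any array, and their brightest spot read 11.2 intensity units.

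Group 9 and 10 genes act at the passage from trunk to tail, and in the mouse group 10 genes keep ribs off the lumbar vertebrae. The largest change of group 9 was that of hoxc9a, with log2 signals of 1.47 and 1.54 after gata5/6 MO, against 1.26, 1.34 and 1.18 after control MO. The groups did not overlap, the change was 0.25 (SE 0.0907, adjusted p = 0.127), and the 2 other probes gave 0.21 and 0.33. The gene hoxb9a had a like change of 0.24 (adjusted p = 0.133), with its other probes at 0.31 and 0.65. The changes of hoxa9a, hoxa9b and hoxd9a were -0.03, -0.02 and -0.16, with overlapping groups in all 3 genes. In group 10, hoxa10b had log2 signals of 1.42 and 1.28 after gata5/6 MO, against 1.24, 1.27 and 1.21 after control MO. The second gata5/6 MO array lay only just above the control MO arrays, and the change was 0.10 (SE 0.0876, adjusted p = 0.459). The changes of hoxb10a and hoxd10a were 0.01 and 0.08, with overlapping groups.

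Groups 11 to 13 stood out after their values were seen, and are described together for that reason alone. All 9 of their measured genes had a change above 0, with a median of 0.35. Both gata5/6 MO arrays lay above the control MO arrays for 8 of the 9 (29.0% of all genes did). The gene hoxb13a was kept by the filter only through the gata5/6 MO arrays, so its direction was set by the filter. Under the 2 normexp forms, 5 of the 9 changes were above 0 and the median was 0.017 and 0.0071. With the high local backgrounds of 5 spots on control MO replicate 3 replaced, all 9 were above 0 with a median of 0.26. The 8 measured genes of groups 9 and 10 had a median of 0.05.

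Group 11 genes pattern the sacral region and the middle segment of the limb in the mouse. The log2 signal of hoxa11b was 0.44 and 0.31 after gata5/6 MO, against 0.02, 0.07 and 0.00 after control MO. The groups were clearly separate, the change was 0.34 (SE 0.0867, adjusted p = 0.0510), and a second probe also gave 0.34. For hoxc11a the log2 signal was -1.61 and -1.67 after gata5/6 MO, against -1.95, -1.93 and -2.08 after control MO. Here too the groups did not overlap, the change was 0.35 (SE 0.0901, adjusted p = 0.0540), and the 2 other probes gave 0.30 and 0.31. Both genes missed the threshold narrowly. In other settings hoxa11b passed with quantile-normalized signals, with probes well above background on all 5 arrays and with the high local backgrounds replaced. It did not pass in the authors' deposited value table or under the 2 normexp forms. The changes of hoxd11a and hoxa11a were 0.22 (adjusted p = 0.173) and 0.19 (adjusted p = 0.463), and the groups overlapped for hoxa11a.

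The only group 12 gene measured was hoxd12a, which in vertebrates is expressed in the tail and the posterior limb or fin bud. Its log2 signal was 0.51 and 0.34 after gata5/6 MO, against 0.15, 0.22 and 0.09 after control MO. Both gata5/6 MO arrays were above the control MO arrays, the change was 0.27 (SE 0.0966, adjusted p = 0.121), and the 3 other probes gave 0.21 to 0.62.

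Group 13 genes are the last to be switched on, and in the mouse they slow and end the growth of the body axis and pattern the distal limb and the urogenital tract. Of its 6 genes, 4 were measured, and all 4 had both gata5/6 MO arrays above the control MO arrays (29.0% of all genes did). Of the 4, 3 rose (7.84% of all genes did), of which hoxb13a could pass only as higher. All 4 were dim, with intensities from 9.93 to 78.3 units.

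The gene hoxb13a had log2 signals of -4.76 and -5.06 after gata5/6 MO, against -5.84, -5.85 and -5.70 after control MO. Its spots read 18.7 and 16.9 intensity units after gata5/6 MO, against 9.94, 9.93 and 10.8 units after control MO. The groups were well apart, and the spot was well above background on both gata5/6 MO arrays and on 0 of the 3 control MO arrays. The limma change of hoxb13a was 0.89 (95% interval 0.59 to 1.18, adjusted p = 0.00673). It was 1.69-fold higher when each control MO array entered no lower than the dimmest signal that still counted as well above background. The means were -4.91 ± 0.21 (SD, n = 2) after gata5/6 MO and -5.80 ± 0.09 (SD, n = 3) after control MO. Its 2 other probes were not well above background on any array, at 2.27 to 2.93 units, so the call rests on 1 spot per array. Under the 2 normexp forms the sign turned (-0.38 and -0.40). Control MO replicate 3 held 5 spots with a very high local background, and normexp with these local backgrounds replaced gave 0.21, which did not pass.

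For hoxc13a the log2 signal was -3.16 and -2.85 after gata5/6 MO, against -3.61, -3.74 and -3.53 after control MO. The groups did not overlap. The gene rose 1.54-fold (log2 change 0.62, SE 0.126, adjusted p = 0.0268 in limma). A second, dimmer probe gave -0.20, and with the mean over both probes the change was 0.21 and did not pass. Under the 2 normexp forms the change was 0.017 and 0.0071 and did not pass, and with the high local backgrounds replaced it was 0.43 (adjusted p = 0.0183). With no filter on dim probes the adjusted p was 0.0512. Nor did it pass without control MO replicate 1 (adjusted p = 0.0929), replicate 2 (0.106) or replicate 3 (0.0785).

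The gene hoxd13a had log2 signals of -3.27 and -3.40 after gata5/6 MO, against -3.71, -3.78 and -4.04 after control MO. The groups did not overlap, and the lowest value was that of control MO replicate 3. It rose 1.42-fold (log2 change 0.51, SE 0.126, adjusted p = 0.0487 in limma), and a second probe gave 0.39. Among 17 alternative analyses it passed in 2, and without single arrays its adjusted p ran from 0.0380 (gata5/6 MO replicate 2 left out) to 0.146 (control MO replicate 3 left out). Under normexp its sign turned too (-0.24 and -0.25), and with the high local backgrounds replaced the change was 0.26.

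For hoxa13b, the fourth gene of the group measured, the log2 signal was -2.74 and -3.24 after gata5/6 MO, against -3.25, -3.32 and -3.46 after control MO. The second gata5/6 MO array was only just above the highest control MO array. The change of 0.35 (SE 0.164, adjusted p = 0.200) did not pass, and a second probe gave 0.38.

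**Figure D3:**
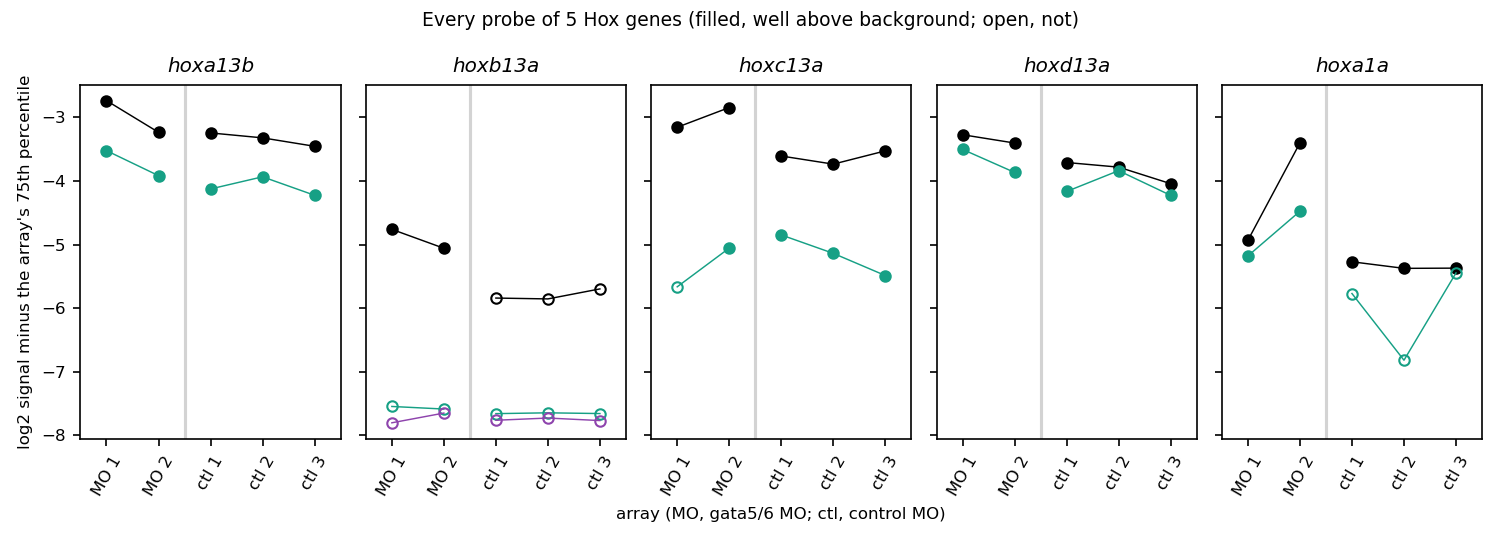
Log2 signal minus the array's 75th percentile (vertical axis) of every probe of hoxa13b, hoxb13a, hoxc13a, hoxd13a and hoxa1a on the gata5/6 MO arrays (MO, left) and control MO arrays (ctl, right), with 1 line per probe. Filled points are well above background and open points are not. Of the 3 hoxb13a probes, 2 are open on all 5 arrays, the lower hoxc13a probe does not follow the upper one, and hoxa1a is high on the second gata5/6 MO array with both probes.

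Set side by side, the median change was 0.03 for the anterior genes, -0.16 for the middle genes and 0.24 for the posterior genes. These are descriptions of groups of genes on the same 5 arrays, and the difference between regions was not tested. Under the 2 normexp forms the posterior median was 0.035 and 0.038, below the anterior median of 0.053 and 0.055, so the order of these regions turned. With the high local backgrounds of 5 spots on control MO replicate 3 replaced, the posterior median was 0.21 and the anterior 0.02. By array, each control MO array was set against the mean of the other control MO arrays. The anterior median stood 0.05 and 0.16 from the control MO mean on the gata5/6 MO arrays, against -0.004, 0.05 and -0.04 on the control MO arrays. The middle median stood at -0.11 and -0.15 on the gata5/6 MO arrays, against 0.04, -0.03 and -0.02 on the control MO arrays. For the posterior genes it was 0.31 and 0.16 on the gata5/6 MO arrays, against 0.02, 0.03 and -0.05 on the control MO arrays. The medians of both gata5/6 MO arrays thus lay below those of the control MO arrays in the middle region and above them in the posterior region, and in the anterior region replicate 1 was only just above them.

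By paralog group, the median change was 0.12 in group 1, 0.26 in group 2, -0.04 in group 3 and 0.03 in group 4. It was -0.11, -0.10, -0.32 and -0.23 in groups 5 to 8, and -0.02, 0.08, 0.28, 0.27 and 0.56 in groups 9 to 13. Groups 5 to 9 were thus those with a median below 0 together with group 3, and the highest median was that of group 13. On gata5/6 MO replicate 1 the medians of groups 9 and 10 were 0.18 and 0.21, while on replicate 2 they were -0.13 and -0.04. From group 11 on, both gata5/6 MO arrays were above 0.

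**Figure D4:**
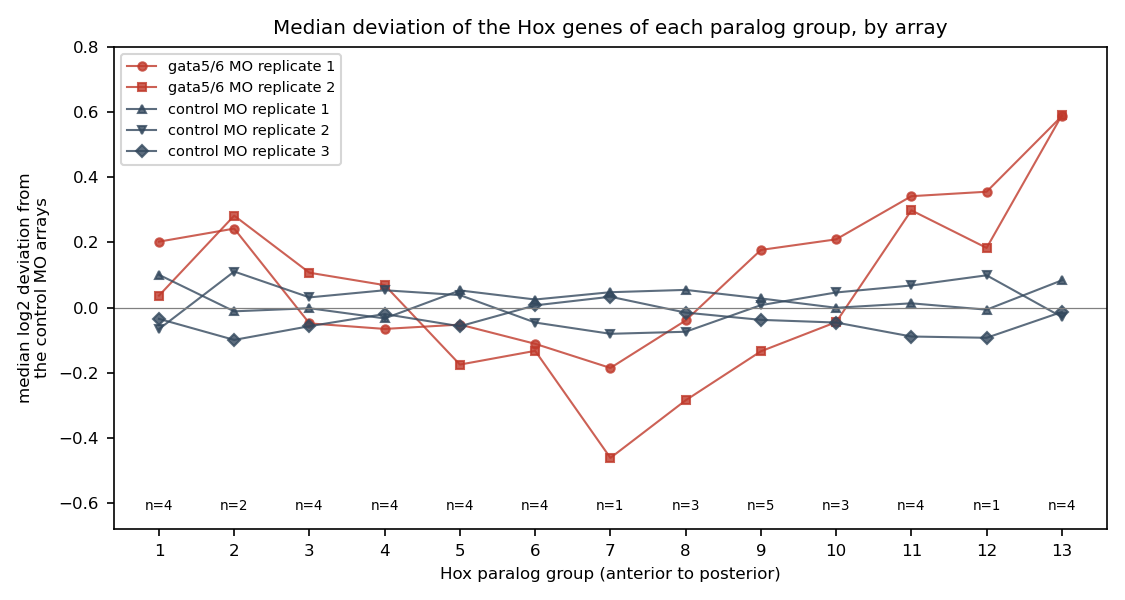
Median log2 deviation of the Hox genes of each paralog group (vertical axis), for the 2 gata5/6 MO arrays (red) and the 3 control MO arrays (dark). A gata5/6 MO array is set against the mean of all control MO arrays. A control MO array is set against the mean of the other control MO arrays. The number of measured genes is given under each group. The red lines dip to -0.19 and -0.46 at group 7, climb to 0.59 on both arrays at group 13, and part from each other at groups 7 to 10.

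Across the 43 genes, Spearman's rho between change and paralog number was 0.34, with genes that share the same 5 arrays. For single arrays rho was 0.46 and 0.15 on the gata5/6 MO arrays. On the control MO arrays, each set against the mean of the others, it was 0.08, -0.005 and -0.02. Within clusters it was 0.82 in hoxda (7 genes), 0.70 in hoxab (5 genes), 0.38 in hoxba (11 genes) and 0.32 in hoxca (9 genes), but -0.26 in hoxaa (6 genes), which holds hoxa1a. The change also went with dimness among Hox genes: rho with the mean log2 signal was -0.50 over the 43 genes, and 0.02 over all 10792 genes. The gene hoxb13a, dim and of group 13, is among the 43 genes and in hoxba. Its direction was set by the filter, and rho was not computed without it. The part of signal strength in the posterior values was not tested.

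By cluster, the 3 genes that rose came from hoxba, hoxca and hoxda. The median change was 0.33 in hoxab, 0.14 in hoxaa, 0.12 in hoxda, 0.01 in hoxba, -0.05 in hoxbb, -0.06 in hoxca and -0.13 for the only measured gene of hoxcb. In hoxab both gata5/6 MO arrays lay above the control MO arrays for 4 of 5 genes (29.0% of all genes did). In hoxbb all 4 genes had overlapping groups and a change below 0. The hoxca cluster held both directions, with 4 genes above (29.0% of all genes) and 4 genes below the control MO arrays (21.8% of all genes).

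Different probes of a gene were mostly in accord in sign. Of 36 Hox genes with more than 1 probe passing the filter, 25 had all their probes on the same side of 0 and 11 had probes on both sides. Above 0 were 24 of 36 probes in groups 1 to 4, 7 of 30 in groups 5 to 8, 15 of 22 in groups 9 and 10, and 18 of 19 in groups 11 to 13. Among these, a hoxa1a probe and the hoxb13a probe were kept only through the gata5/6 MO arrays, so their direction was set by the filter. The second hoxc13a probe, below 0, was kept only through the control MO arrays. The like shares over all genes and probes of the array were not counted. Adjusted over all probes of the array, 4 Hox probes passed in limma, those of hoxb13a and hoxc13a and dim probes of hoxa2b (change 0.41, adjusted p = 0.0491) and hoxb9a (0.65, adjusted p = 0.0148). Of these, the hoxb13a probe could pass only as higher. The share of all probes that passed was not counted, so these 4 cannot be set against the array as a whole. Duplicated zebrafish Hox genes are alike in sequence and probe sequences were not used here, so a probe may also read a related copy.

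The intervals hold only the spread between arrays of the same group. They do not cover a shift between slides, which cannot be told apart from treatment. For 36 of 43 Hox genes the 95% interval of the change lay within 1.5-fold in either direction, and for 41 within 2-fold, against 61.4% and 88.6% of all genes. Within 1.25-fold lay 10 Hox genes, against 15.9% of all genes, so even on this spread smaller shifts were not bounded for most of the family. Estimated changes of at least 1.5-fold occurred for 3 Hox genes (hoxa1a, hoxb13a and hoxc13a), against 11.7% of all genes.

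Genes that work with or upstream of Hox genes were compared in the same fit, with 7.84% of all genes higher and 7.17% lower as the background. Of 12 measured cofactor genes of the Pbx, Meis and Pknox families, whose proteins bind DNA with Hox proteins, 0 passed, and the changes ran from -0.30 to 0.29. The caudal genes cdx1a and cdx4 gave 0.19 and -0.12 and did not pass. Of 3 measured ParaHox and Evx genes, sister genes of the Hox genes, the pancreatic gene pdx1 fell (change -0.46, adjusted p = 0.0158).

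Among 20 measured genes of retinoic acid synthesis, breakdown and reception, the synthesis gene aldh1a3 was 1.64-fold higher after gata5/6 MO. Its log2 change was 0.72 (95% interval 0.39 to 1.05, adjusted p = 0.0211 in limma). The probe was well above background on 0 of 3 control MO arrays, so aldh1a3 could pass only as higher. The breakdown gene cyp26a1, itself induced by retinoic acid, fell (-0.39, adjusted p = 0.0377 in limma), and the median over the 20 was -0.09. Of 14 hindbrain genes, hnf1bb fell (-0.56, adjusted p = 0.0483), and the median was again -0.09. Of 19 tailbud genes, where the posterior Hox genes are active, nkx1.2lb rose (1.23, adjusted p = 0.00736 in limma) and fgf24 fell (-0.34, adjusted p = 0.0477). The filter kept nkx1.2lb only through the gata5/6 MO arrays, with 1 of 3 control MO arrays well above background, so it could pass only as higher. The median of the 19 was 0.01, beside 0.24 for the posterior Hox genes. Of 18 Polycomb and Trithorax genes, bmi1b rose (0.41, adjusted p = 0.0398), and the median was -0.05. The calls of pdx1, aldh1a3, cyp26a1, hnf1bb, fgf24 and bmi1b were each lost without at least 1 control MO array. The sign of aldh1a3 and nkx1.2lb turned under the 2 normexp forms. With the high local backgrounds of 5 spots on control MO replicate 3 replaced, nkx1.2lb passed and aldh1a3 did not.

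The pectoral fin field, where Hox genes of groups 4 to 6 act with retinoic acid, was the list with the lowest median (-0.31 over 7 genes). The gene hand2, also a heart gene, fell (-1.11, adjusted p = 0.00273 in limma), as did fgf10a (-0.73, adjusted p = 0.00790 in limma). With fgf24, which belongs to this list as well, 3 of the 7 genes fell (7.17% of all genes did). The other 4 genes did not pass. Of these, fgf16 had a change of 0.55 (adjusted p = 0.0530 in limma) and meis1a of 0.03, against -0.30 for sall4 and -0.31 for prdm1a. Both hand2 and fgf10a passed whichever control MO array was left out, but neither passed under the 2 normexp forms. Under those forms only 19 of all genes rose and 23 fell. With the high local backgrounds of 5 spots on control MO replicate 3 replaced, hand2 and fgf10a both passed. The groups 4 to 6 Hox genes themselves had medians of 0.03, -0.11 and -0.10 and 0 passed (15.0% of all genes did).

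Genes beside the clusters were listed from the RefSeq order, up to 2 named protein-coding genes on either side, after the files had been examined. Of 28 such genes 19 were measured, with a median of 0.08. Of the 19, 2 rose (7.84% of all genes did) and 0 fell (7.17% of all genes). The gene snx10a, next to the anterior end of hoxaa, rose (1.17, adjusted p = 0.0114 in limma), and its nearest neighbour in that cluster is hoxa1a. The gene skap1, beside hoxbb, rose (0.51, adjusted p = 0.0280 in limma), a call lost whichever control MO array was left out. Neither snx10a nor skap1 passed under the 2 normexp forms, but both passed with the high local backgrounds of 5 spots on control MO replicate 3 replaced. The snx10a signal was -1.32 and -1.81 after gata5/6 MO, against -2.57, -2.93 and -2.70 after control MO, and here the first gata5/6 MO array was the higher, the reverse of hoxa1a.

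**Figure D5:**
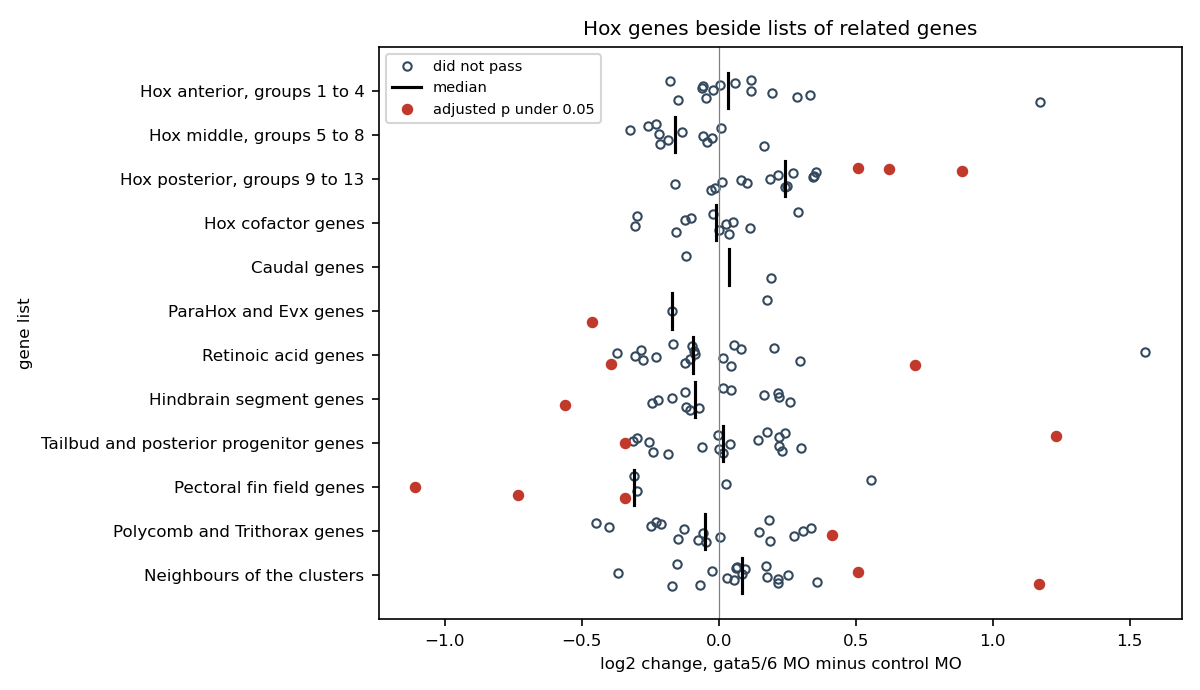
Log2 change (gata5/6 MO minus control MO, horizontal axis) of the measured genes of each list, 1 point per gene, with filled red points for an adjusted p under 0.05 and a black bar at the median. The posterior Hox median of 0.24 lies right of 0, the middle Hox median of -0.16 and the fin field median of -0.31 left of 0.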

How the data were processed

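RNA of 5 whole-embryo samples was measured on 1-colour Agilent arrays. Per the file headers, Feature Extraction 10.7.3.1 made the deposited processed intensity by subtracting background and detrending within each array, whereas version 10.7.1.1 is named in the submitters' processing notes. The authors' deposited value table holds log2 values with 1 common distribution over arrays, by a method not given in the sources used here.

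From these files, log2 processed intensity was reduced by the log2 of each array's 75th percentile, and spots were averaged per probe. Control spots and 52 probes with an outlier spot were left out. A probe was kept where all arrays of 1 group or of both showed it well above background (30618 of 43603 probes), and the brightest such probe stood for its gene. Accessions were matched to RefSeq names (assembly GRCz12tu) for 25598 probes (58.7%), and no coordinates are given since the array was designed on another build. The comparison used limma (version 3.58.1, lmFit then eBayes) under R 4.3.3, with 3 residual degrees of freedom two-sided tests, and Benjamini-Hochberg adjustment over all genes with 0.05 as the threshold. The comparison was tested on simulated data in which each gene had the same spread in both groups, so unequal spread was not covered. Hox genes named with full values are those that passed, those below background in 1 group only, and the largest change of each paralog group; others are given by change or count, and hoxa11b, hoxa13b and hoxc8a were added after their values were seen. Up to 4 passing members per list are named.

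The Hox genes and gene lists were chosen with earlier results of these data known. Alternatives covered background correction, normalization, the authors' table, filters, probe summary, moderation, unequal variances, a replicate block and leaving out each array.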

Additional observations from a re-analysis of the deposited data

How the results depend on the processing

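Over 18 alternatives, the number of Hox genes that rose (3) became 0 under both normexp corrections and 1 with no filter on dim probes, and ran from 1 to 13 without single arrays: 1 without each control MO array in turn, 4 without gata5/6 MO replicate 1 and 13 without gata5/6 MO replicate 2. The number that fell (0) was 1 under normexp with high local backgrounds replaced (an alternative chosen after seeing the data; hoxb5a), quantile normalization and the authors' table (hoxb7a in both), and 0 to 4 without single arrays. The median Hox change (0.01) was -0.021 under quantile normalization, -0.024 in the authors' table, 0.058 with no filter and with the mean over probes, and 0.0064 to 0.077 without single arrays. The anterior median (0.03) ran from 0.016 to 0.16 without single arrays. The middle median (-0.16) was -0.11 under both normexp corrections, -0.19 with high local backgrounds replaced, and -0.17 to -0.11 without single arrays. The posterior median (0.24) was 0.035 and 0.038 under the normexp corrections, 0.21 with high local backgrounds replaced, and 0.16 to 0.31 without single arrays. Over all genes, 19 rose and 23 fell under both normexp corrections, and without single arrays 371 to 3114 rose and 314 to 2166 fell. Under normexp with the high local backgrounds of 5 spots on control MO replicate 3 replaced, 907 of all genes rose and 714 fell. The counts before any alternative were 846 and 774. In that form, chosen after seeing the data, 2 Hox genes rose (hoxa11b and hoxc13a). Under normexp and its maximum-likelihood form the sign turned, among the 15 Hox genes named by rule, for hoxb13a (-0.38 and -0.40), hoxd13a (-0.24 and -0.25) and hoxa1a (-0.057 and -0.069). Genes of groups 11 to 13 had a positive change in 9 of 9 cases in most settings, in 5 of 9 under both normexp corrections (hoxa11a and hoxa13b were the others below 0) and in 8 of 9 without gata5/6 MO replicate 2. Beyond the normexp forms, the cause of these differences was not tested.

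Groups share replicate numbers 1 and 2, but 2 pairs are too few to show pairing (correlations of deviations 0.12 and 0.20). With the number as a replicate block, 3 Hox genes rose (hoxa1a, adjusted p = 1.15e-06 in limma, hoxb13a and hoxc13a) and 0 fell. In all, 937 genes rose and 847 fell. Replicate number 3 occurs only in control MO, so this fit sets that array aside. Its 2 pairs leave 1 residual degree of freedom, so the p-values rest mostly on spread borrowed from other genes. With so few arrays all values are imprecise, and a fit with 1 gata5/6 MO array takes its spread from the control MO arrays alone.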
